A study of Gallus gallus with 4 samples.

Results

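The genes described here are the receptor of the macrophage growth factors and the receptors and bridging proteins with which phagocytes take up dead cells. A list of 10 genes was looked up by symbol on a chicken gene array, namely CSF1R, CSF1, IL34, MERTK, TYRO3, GAS6, PROS1, MFGE8, MARCO and TIMD4. Of these, 7 had at least 1 probe set that names that gene and no other, which gave 16 probe sets of 38439 on the array. CSF1, IL34 and TYRO3 had no such probe set and were not analysed here. RNA was measured in 2 samples of follicle-associated epithelium (FAE) and 2 samples of interfollicular epithelium (IFE) from the bursa of Fabricius of healthy Line-M chicks, aged 19 days and free of specific pathogens. FAE caps the lymphoid follicles of this organ, and IFE lies between the caps. Both were stained with black ink and lifted by needle after EDTA, for FAE in 5 min at room temperature and for IFE in 30 min at 37 °C. The EDTA step and the epithelium therefore cannot be told apart. Titles and cell type labels give the groups, whereas the source name of the IFE samples reads FAE. Whether replicates are separate birds is not stated, so the spread between the 2 samples of each group may be technical. The p-values rest on that spread, which the test pulls toward the spread of probe sets of like intensity.

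CSF1R is a receptor tyrosine kinase that CSF1 and IL34 bind, and macrophages depend on it to form and survive. Dying cells expose phosphatidylserine on their surface. TIMD4 binds this lipid directly. MERTK and the related kinases TYRO3 and AXL reach it through secreted bridges, of which GAS6 serves all of them and PROS1 serves MERTK and TYRO3 in mammals, and MFGE8 links it to integrins of the phagocyte. MARCO is a scavenger receptor of macrophages that binds bacteria and particles. Many B cells that form in the bursa die there, and phagocytes remove them.

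All receptors measured, except MARCO, were called higher in FAE on at least 1 probe set, and no bridging protein was called. The dimmer TIMD4 probe set was not called. CSF1R, MERTK and TIMD4 were higher in FAE on their brightest probe sets, by 11.3-fold, 16.1-fold and 5.74-fold. The bridge genes GAS6, PROS1 and MFGE8 had lower mean signals in FAE on every tested probe set, but none of these passed the test. MARCO did not pass either. Of the 16 probe sets, 12 were bright enough to be tested and 4 were not. By limma, 4 of the 12 were called higher in FAE at an adjusted p under 0.05, against 5.22% of the 23063 probe sets tested, and 0 were called lower, against 3.01%. At an unadjusted p under 0.05, 5 were higher and 4 lower, against 12.2% and 11.8% of all tested. Groups did not overlap for 11 of the 12: FAE lay above IFE for 5 and below it for 6, where 25.4% and 30.5% of all tested probe sets did so. The median log2 fold change, FAE over IFE, was -0.39 over the 12 and -0.07 over all tested probe sets. These counts describe probe sets that passed a filter on dim signal, and the 3 CSF1R probe sets among them are not independent. One of these, GgaAffx.26579.1.S1_s_at, passed the filter only through its FAE signals and is among the 5 higher at an unadjusted p under 0.05.

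**Figure D1:**
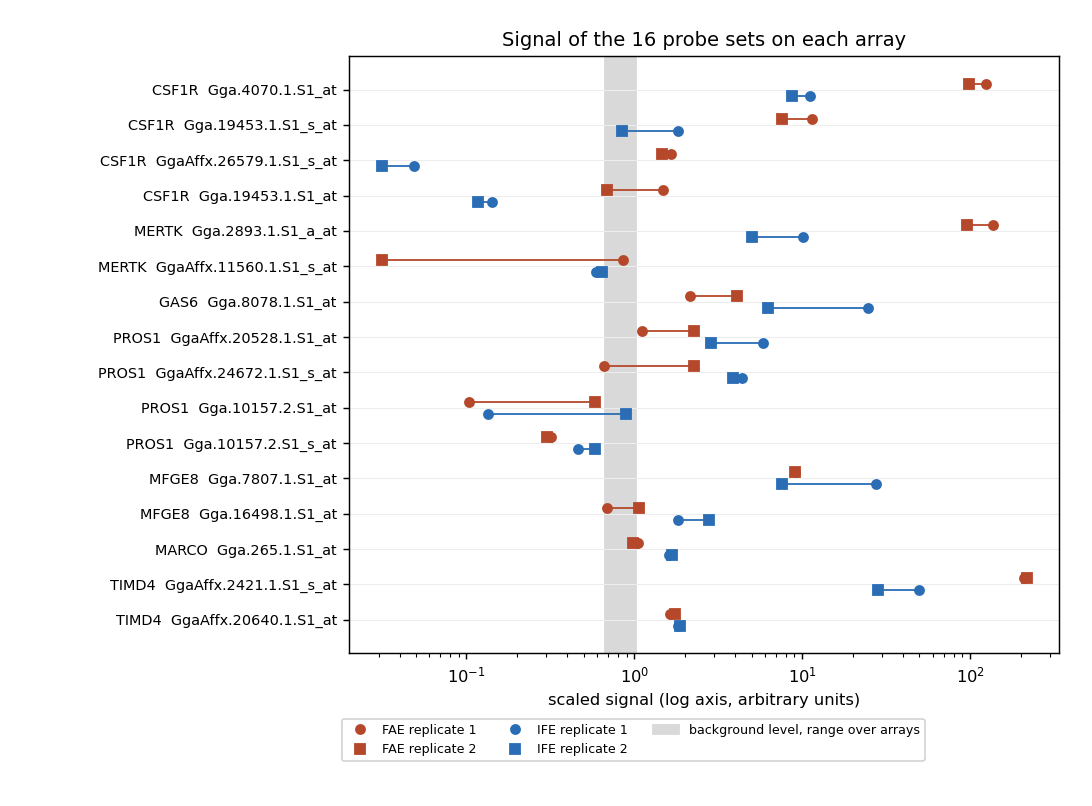
Scaled signal (log axis, arbitrary units) of each of the 16 probe sets on the 4 arrays, with FAE in red above IFE in blue, circles for replicate 1 and squares for replicate 2, and a grey band for the range of background levels over the arrays. The brightest probe sets of CSF1R, MERTK and TIMD4 separate the groups widely, whereas 4 probe sets, of CSF1R, MERTK and PROS1, were too dim to be tested.

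The arrays were not of equal quality. IFE replicate 2 had a 3'/5' signal ratio of beta-actin of 31.2, a measure of RNA integrity that rises as RNA shortens, against 14.4 to 18.6 on the other arrays. Its background level, the signal under which 95% of unnamed probe sets without the chicken prefix fall, was 1.02, against 0.671 to 0.722. The median log2 gap between replicates was 0.482 in IFE and 0.252 in FAE. A fit with 1 FAE array left out takes its replicate spread from the IFE pair alone. One with 1 IFE array left out takes it from the FAE pair alone. Calls lost or gained in such fits depend on this as well as on the gene. Over all tested genes, fewer were called with an FAE array left out and more with an IFE array left out. Epithelial markers were bright in both groups: the adhesion molecule EPCAM had scaled signals of 315 and 412 in FAE, against 501 and 554 in IFE, and the cadherin CDH1 had 245 and 320 in FAE, against 394 and 484 in IFE.

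CSF1R was measured by 4 probe sets, all of which had FAE above IFE. On Gga.4070.1.S1_at the scaled signals were 125 and 98.1 in FAE, against 11.1 and 8.67 in IFE. Both FAE arrays were thus high, and the lower of them was 8.83-fold above the higher IFE array. The log2 fold change was 3.50 (SE 0.26, limma adjusted p = 0.00214), a fold with a 95% interval of 7.40 to 17.2. Replicates were close on this probe set, with gaps of 0.35 log2 units in FAE and 0.36 in IFE. Without each array in turn the log2 fold change was 3.32 to 3.68.

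The other CSF1R probe sets were dimmer. Gga.19453.1.S1_s_at had signals of 11.5 and 7.55 in FAE, against 1.83 and 0.845 in IFE, where the value of IFE replicate 2 lay under its background level. Its log2 fold change was 2.90 (SE 0.44, limma adjusted p = 0.0113), and its call was lost without FAE replicate 1 (2.60, adjusted p = 0.0969). GgaAffx.26579.1.S1_s_at had 1.66 and 1.46 in FAE, against 0.0488 and 0.0313 in IFE. Both IFE values were under background, so the signal of this probe set was at least 1.81-fold higher in FAE. This probe set did not pass (limma adjusted p = 0.131). It was bright enough to be tested only through its FAE values, and without either FAE replicate it was too dim, so its test supports nothing on its own. The fourth, Gga.19453.1.S1_at, was left out as dim, with 1.48 and 0.684 in FAE, against 0.141 and 0.118 in IFE, a bound of at least 1.18-fold. In the annotation, GgaAffx.26579.3.S1_x_at, of the same family as GgaAffx.26579.1.S1_s_at, names both CSF1R and the receptor gene FLT4 and was not counted. Its signals of 0.0238 and 0.0639 in FAE, against 0.0413 and 0.0714 in IFE, lay under background. GgaAffx.26579.2.S1_at and GgaAffx.26579.3.S1_s_at of that family name FLT4 alone. Whether GgaAffx.26579.1.S1_s_at also captures FLT4 RNA was not tested.

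MERTK was the member with the largest called change. Gga.2893.1.S1_a_at had scaled signals of 137 and 96.2 in FAE, against 10.2 and 5.02 in IFE. The groups stood apart, with the lower FAE array 9.45-fold above the higher IFE array. The log2 fold change was 4.01 (SE 0.38, limma adjusted p = 0.00287), a fold with a 95% interval of 8.62 to 29.9. Without each array in turn the log2 fold change stayed between 3.49 and 4.52. The gap between the IFE replicates, 1.02 log2 units, was larger than on 81.1% of tested probe sets. The second MERTK probe set, GgaAffx.11560.1.S1_s_at, was too dim to be tested: it had 0.856 and 0.0313 in FAE, against 0.595 and 0.642 in IFE. Of these 4 values only that of FAE replicate 1 was above background, so no fold is given.

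The other kinase of this family measured on the array was AXL, which is no gene of the list, although the gene table gives TYRO3 as a synonym of it. Its probe set, Gga.4266.1.S1_at, had scaled signals of 28.4 and 20.1 in FAE, against 7.97 and 5.06 in IFE. The groups did not overlap, and the log2 fold change was 1.91 (SE 0.33, limma adjusted p = 0.0180). Leaving out either FAE replicate ended the call, with an adjusted p of up to 0.257, as did a test with no intensity trend.

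TIMD4 gave different answers on its probe sets. GgaAffx.2421.1.S1_s_at had scaled signals of 211 and 218 in FAE, against 49.7 and 28.2 in IFE. FAE replicates were nearly level, with a gap of 0.05 log2 units, and both lay above IFE. The log2 fold change was 2.52 (SE 0.29, limma adjusted p = 0.00483), a fold with a 95% interval of 3.55 to 9.28. It ranged from 2.11 to 2.93 without each array in turn. Without the intensity trend the adjusted p was 0.0506. GgaAffx.20640.1.S1_at, in contrast, had 1.62 and 1.76 in FAE, against 1.81 and 1.86 in IFE. These signals were low, beside background levels of 0.671 to 1.02 on the arrays. It had a log2 fold change of -0.12 (SE 0.33, limma adjusted p = 0.860), with a 95% interval of -0.90 to 0.65, and its sign turned when arrays were left at their deposited median. The suffix _s_at marks probes shared by several transcripts. In the gene table, the gene next to TIMD4 is its relative HAVCR1 (TIM1), another receptor for phosphatidylserine, which was also called higher in FAE. Whether probes of TIMD4 also capture HAVCR1 RNA was not tested.

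**Figure D2:**
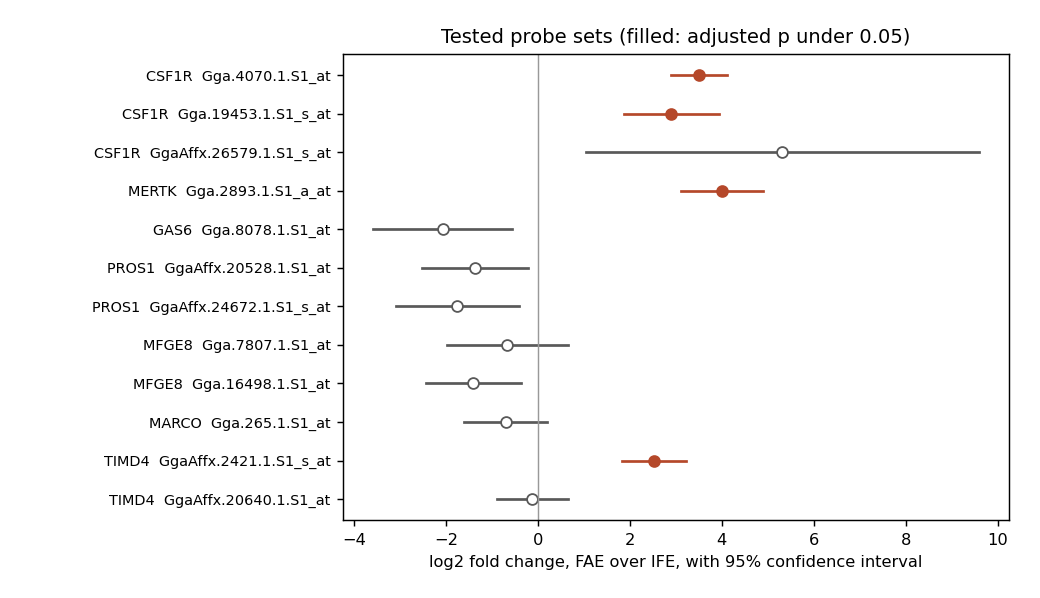
Log2 fold change, FAE over IFE, of the 12 tested probe sets with its 95% confidence interval from limma; filled red points passed an adjusted p of 0.05 and open points did not. The 4 filled points belong to CSF1R, MERTK and TIMD4, and the widest interval, 1.04 to 9.58, belongs to a CSF1R probe set at background in IFE.

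GAS6, the bridge shared by the whole kinase family, had scaled signals of 2.16 and 4.08 in FAE, against 24.5 and 6.30 in IFE. Both FAE arrays were below both IFE arrays, but IFE replicate 1 was 3.89-fold above IFE replicate 2. That gap was larger than on 95.4% of tested probe sets. The log2 fold change was -2.07 (SE 0.64), with a 95% interval of -3.57 to -0.56, and the probe set did not pass (limma adjusted p = 0.104). A fit with 1 IFE array left out holds no spread between IFE replicates, so only its value is given. That value was -3.05 without IFE replicate 2 and -1.09 without IFE replicate 1. The size of the difference thus rests on which IFE array is read.

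PROS1, a bridge that is also an anticoagulant of plasma, had 4 probe sets, of which 2 were tested. GgaAffx.20528.1.S1_at had signals of 1.11 and 2.26 in FAE, against 5.84 and 2.86 in IFE. Its log2 fold change was -1.37 (SE 0.49, limma adjusted p = 0.145). GgaAffx.24672.1.S1_s_at had 0.661 and 2.28 in FAE, against 4.39 and 3.86 in IFE, with a log2 fold change of -1.75 (SE 0.57, limma adjusted p = 0.118). On both, FAE lay below IFE with no overlap, and on the second FAE replicate 1 was just under background. With 1 array left out, the first was -1.88 without IFE replicate 2, and the second was -2.64 without FAE replicate 2. Without FAE replicate 1 both were smaller, at -0.85, and without IFE replicate 1 the first was also -0.85. The remaining probe sets, Gga.10157.2.S1_at and Gga.10157.2.S1_s_at, were under background on all 4 arrays, with signals of at most 0.582 in FAE and 0.898 in IFE.

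MFGE8 was read by 2 probe sets. Gga.7807.1.S1_at had signals of 9.10 and 9.06 in FAE, against 27.4 and 7.57 in IFE. The FAE arrays were level and lay between the IFE arrays, so the groups overlapped, and the log2 fold change was -0.67 (SE 0.56, limma adjusted p = 0.519). It turned to 0.26 without IFE replicate 1 and was -1.60 without IFE replicate 2, in fits that hold no spread between IFE replicates. Gga.16498.1.S1_at had 0.684 and 1.07 in FAE, against 1.83 and 2.80 in IFE, with no overlap and a log2 fold change of -1.41 (SE 0.44, limma adjusted p = 0.106). The value of FAE replicate 1 was just above its background level of 0.671. With 1 array left out, that one ranged from -1.73 to -1.08. IFE replicate 1 was the higher IFE array on the first probe set and the lower on the second, so the probe sets disagree on the order of the IFE arrays.

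MARCO had 1 probe set, Gga.265.1.S1_at, with signals of 1.06 and 0.987 in FAE, against 1.62 and 1.69 in IFE. FAE lay below IFE with no overlap, and all 4 values were close to the background level of their array but above it. The log2 fold change was -0.69 (SE 0.38, limma adjusted p = 0.325), with a 95% interval of -1.60 to 0.21. With 1 array left out it ranged from -0.74 to -0.64.

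**Figure D3:**
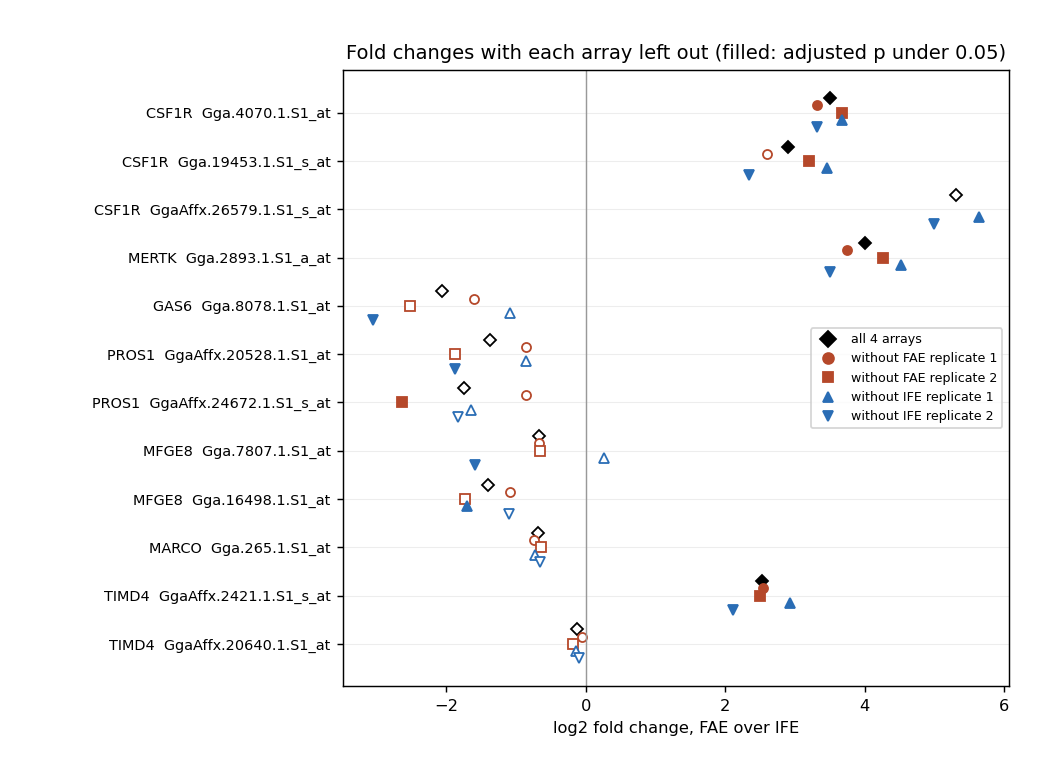
Log2 fold change, FAE over IFE, of the 12 tested probe sets with all 4 arrays (black diamonds) and with 1 array left out (red without an FAE array, blue without an IFE array); filled symbols passed an adjusted p of 0.05. CSF1R, MERTK and TIMD4 stay well above 0 on their brightest probe sets, while GAS6 runs from -3.05 to -1.09. MFGE8 runs from -1.60 to 0.26 on Gga.7807.1.S1_at and from -1.73 to -1.08 on Gga.16498.1.S1_at. With 1 array left out, that array's group adds no replicate spread to the test.

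Many markers of macrophages, dendritic cells and B cells were also called higher in FAE. For macrophages and dendritic cells, 7 of 12 tested markers were higher in FAE and 0 lower, against 6.31% and 3.95% of the 10398 tested genes, with a median log2 fold change of 2.06 against -0.07 over all genes. Among the 7, the complement gene C1QC was under background on both IFE arrays and was bright enough to be tested only through its FAE values. At an unadjusted p under 0.05, 9 markers were higher and 2 lower, against 12.2% and 11.8% of all tested probe sets. That share was not counted over genes. Without FAE replicate 1 and 2 the median of this list was 1.83 and 2.38, and without IFE replicate 1 and 2 it was 2.79 and 1.67. Fewer of its genes were called without an FAE array and more without an IFE array, as over all tested genes. The summed scaled signal of this list was 1326 and 1475 in FAE, against 850 and 1040 in IFE. Bright genes, such as CD74 below, weigh most in such a sum. For B cells, 6 of 10 were higher and 0 lower, with a median of 2.67. Summed signals were 516 and 529 in FAE, against 124 and 108 in IFE. At an unadjusted p under 0.05, 9 B cell markers were higher and 0 lower, beside the same 12.2% and 11.8% of probe sets. The B cell median was 2.73 and 2.62 without FAE replicate 1 and 2, and 2.19 and 2.62 without IFE replicate 1 and 2. Here too, fewer genes were called without an FAE array and more without an IFE array. Too dim to be tested were the macrophage and dendritic cell markers TLR4, CCR7, XCR1 and ZNF366. So were the B cell markers TNFRSF13B, RAG2 and CXCR5. The part of these cells in the values of CSF1R, MERTK and TIMD4 was not tested. In such bulk samples, fewer cells of a type and less RNA per cell cannot be told apart.

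Among the macrophage markers, C1QA, the A chain of complement C1q, had signals of 59.3 and 41.8 in FAE, against 0.651 and 2.57 in IFE, where the first IFE value lay under background. The integrin subunit ITGB2 had 96.7 and 78.7 in FAE, against 7.78 and 4.29 in IFE. The invariant chain CD74, by contrast, had 390 and 525 in FAE, against 361 and 449 in IFE, with a log2 fold change of 0.17 (limma adjusted p = 0.674). For B cells, the kinase BTK had 33.4 and 32.5 in FAE, against 1.98 and 1.48 in IFE, whereas the transcription factor PAX5, at 1.44 and 0.859 in FAE, against 1.52 and 2.65 in IFE, did not pass. PAX5 lay below IFE with no overlap. Of the 12 tested macrophage and dendritic cell markers, FAE lay above IFE with no overlap for 9 and below it for 2. Of the 10 tested B cell markers it lay above for 9 and below for 1, PAX5. Over all tested probe sets the shares were 25.4% and 30.5%.

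T cell markers had 1 of 7 higher, CD3E at 1.41, against 6.31% of all tested genes, and summed signals of 65.9 and 56.7 in FAE, against 32.7 and 21.8 in IFE. The call of CD3E ended when either FAE array was left out. It also ended with no intensity trend in the test, which left 0 called. The median log2 fold change of this list was 1.43, and 0.72 to 1.57 with 1 array left out. Thrombocyte and red cell markers had 2 of 6 higher, the globin gene HBA1 (at least 5.61-fold) and the integrin ITGB3, with sums of 15.99 and 16.7 in FAE, against 8.42 and 8.02 in IFE. Both lost their calls without either FAE replicate. The median log2 fold change of this list was 0.56, and 0.47 to 1.04 with 1 array left out. Of the 6 markers, 2 were under background on both IFE arrays, among them HBA1, which was bright enough to be tested only through its FAE values. Another HBA1 probe set overlapped between the groups and did not pass (limma adjusted p = 0.397). Endothelial markers had 1 of 7 higher, the cadherin CDH5 at 3.51, and sums of 24.3 and 22.5 in FAE, against 14.03 and 29.9 in IFE, and CDH5 kept its call without each array. The median log2 fold change was -1.12 for endothelial and -0.17 for fibroblast markers. Fibroblast markers had 0 of 10 called by limma in either direction, and 0 at an unadjusted p under 0.05. Epithelial markers had 3 of 12 lower and 0 higher, with sums of 1537 and 1895 in FAE, against 2528 and 2651 in IFE. At an unadjusted p under 0.05, 8 were lower and 1 higher, against 11.8% and 12.2% of all tested probe sets. Epithelial calls were 0 with no intensity trend in the test. All 3 calls ended without FAE replicate 1, and all but that of ELF3 without FAE replicate 2. The median log2 fold change of epithelial markers was -0.59, and -0.79 to -0.33 with 1 array left out.

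**Figure D4:**
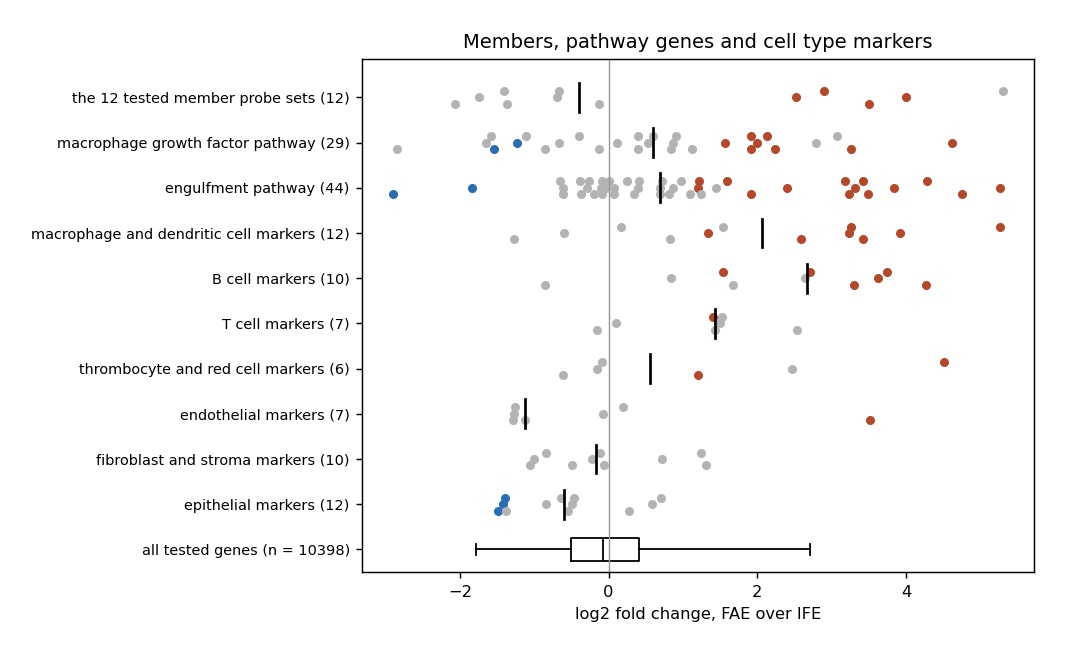
Log2 fold change, FAE over IFE, of the 12 tested member probe sets and of the genes in each pathway and marker list (red called higher, blue called lower, grey not called, black bar the median), with a box for all 10398 tested genes whose whiskers span the middle 95%. The medians of the macrophage and B cell lists stand at 2.06 and 2.67, and that of the members at -0.39.

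Other genes of CSF1R signalling and of related growth factors were called in both directions. Of 29 tested genes, 8 were higher in FAE and 2 lower, against 6.31% and 3.95% of all tested genes, and their median log2 fold change was 0.59. Under background were 3 of the 29 on both IFE arrays and 1 on both FAE arrays. Those called higher were the transcription factor SPI1 (PU.1), which drives CSF1R expression in mammals, the kinases FES and FYN, the heparan sulphate proteoglycan SDC1, which binds IL34 in mammals, the phospholipase PLCG2, the PI3-kinase subunit PIK3CD, the phosphatase PTPN6 and the cytokine signalling inhibitor SOCS1. SPI1 had scaled signals of 259 and 255 in FAE, against 27.1 and 26.3 in IFE, with a log2 fold change of 3.27 (SE 0.20, limma adjusted p = 0.00208). FES had 14.7 and 12.4 in FAE, against 0.8502 and 0.356 in IFE, where the second IFE value lay under background. Its log2 fold change was 4.62 (SE 0.45, limma adjusted p = 0.00305). The IFE mean of FES lay under the level of the filter on dim signal, so it was tested only through its FAE values. SDC1 had 68.0 and 61.8 in FAE, against 15.8 and 13.9 in IFE, with a log2 fold change of 2.13. The log2 fold changes of the others were 2.24 for FYN, 1.92 for PLCG2, 2.00 for SOCS1, 1.91 for PIK3CD and 1.56 for PTPN6.

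Called lower in FAE were KIT, the receptor of stem cell factor and a relative of CSF1R, with 2.64 and 3.70 in FAE, against 7.97 and 10.4 in IFE, and the transcription factor CEBPB, with 23.3 and 21.3 in FAE, against 41.6 and 66.1 in IFE. PTPRZ1, another receptor that binds IL34 in mammals, had 0.218 and 0.165 in FAE, against 1.49 and 1.25 in IFE. Both FAE values lay under background, so that it was at least 2.01-fold lower in FAE, and it did not pass (limma adjusted p = 0.0913). PTPRZ1 was bright enough to be tested only through its IFE values. Only SPI1 and FES among these 10 calls held without each array in turn. Leaving out either FAE replicate ended the other 8. With no intensity trend the calls of KIT, CEBPB, PIK3CD, PTPN6 and SOCS1 also ended. So did those of CEBPB and PTPN6 at the deposited median, and that of CEBPB without the filter. The median of the list was 0.60 and 0.53 without FAE replicate 1 and 2, and 0.65 and 0.70 without IFE replicate 1 and 2. SPI1 is also one of the macrophage markers. Other probe sets of SDC1 (0.64), FYN (3.40, with IFE replicate 2 under background) and PIK3CD did not pass. One of PIK3CD gave -0.39, and the other was under background on both IFE arrays, a bound of at least 1.55-fold higher in FAE.

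More genes of the engulfment machinery were called higher in FAE than lower. Of 44 tested, 14 were higher and 2 lower, against 6.31% and 3.95% of all tested genes, and the median log2 fold change was 0.69. Under background on both IFE arrays were 2 of the 44. Among those called higher, the 8 with the smallest adjusted p were DOCK2 and RAC2, which together drive actin rearrangement in leukocytes, the receptors HAVCR1, CD36 and CX3CR1, and the C1q chains C1QA, C1QB and C1QC, which coat dying cells. DOCK2 had scaled signals of 109.7 and 95.02 in FAE, against 9.03 and 5.59 in IFE, with a log2 fold change of 3.84 (SE 0.30, limma adjusted p = 0.00223). RAC2 had 43.7 and 51.9 in FAE, against 6.09 and 4.49 in IFE, with a log2 fold change of 3.19. The widely expressed relatives of both differed less. DOCK1 was called at 1.22 and lost its call without either FAE replicate. It also lost it with quantile normalization, at the deposited median and with no intensity trend. Another DOCK1 probe set, at 1.21, did not pass (limma adjusted p = 0.250). RAC1, with 224 and 227 in FAE, against 164 and 114 in IFE, had 0.72 and did not pass (limma adjusted p = 0.107).

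HAVCR1 had scaled signals of 93.2 and 64.9 in FAE, against 8.30 and 5.78 in IFE, with a log2 fold change of 3.49 (SE 0.30, limma adjusted p = 0.00233), and its 2 other tested probe sets were called at 2.62 and 3.30. The scavenger receptor CD36 had 34.1 and 21.5 in FAE, against 3.41 and 2.16 in IFE. CX3CR1, the receptor of fractalkine, had 11.2 and 8.59 in FAE, against 2.24 and 1.55 in IFE. All 3 receptors stood clear of overlap. C1QB had 14.1 and 8.13 in FAE, against 0.979 and 1.34 in IFE, and C1QC, under background on both IFE arrays, was at least 4.16-fold higher in FAE. C1QC was bright enough to be tested only through its FAE values.

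The integrins that bind MFGE8 did not move as one. ITGAV, the alpha-v subunit, had scaled signals of 69.5 and 54.5 in FAE, against 10.7 and 0.942 in IFE, where the second IFE value was under background. ITGB3, its beta-3 partner, had 6.08 and 5.83 in FAE, against 2.33 and 2.89 in IFE, and was called higher at 1.20 (limma adjusted p = 0.0472). ITGB5, its beta-5 partner, went the other way, with 0.814 and 1.61 in FAE, against 10.2 and 7.11 in IFE, with a log2 fold change of -2.90 (SE 0.41, limma adjusted p = 0.00895). The crosslinking enzyme TGM2, a helper of alpha-v beta-3 in engulfment in mammals, was also lower, with 50.6 and 89.4 in FAE, against 277 and 209 in IFE. The calls of ITGB5 and TGM2 were lost without FAE replicate 1, those of ITGAV and ITGB3 without either FAE replicate and with quantile normalization. With no intensity trend, each of these genes lost its call. ITGAV and ITGB3 also lost theirs without the filter, and ITGAV at the deposited median. The median of the list was 0.51 and 0.66 without FAE replicate 1 and 2, and 0.61 and 0.55 without IFE replicate 1 and 2. Of the 8 genes named first, CX3CR1 lost its call without FAE replicate 1 and C1QC without either FAE replicate, while the other 6 kept theirs without each array. The 3 C1q genes are also macrophage markers.

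Profiles over the 4 arrays were set beside those of CSF1R and MERTK, each centred on its own mean, by the root mean square difference of log2 signal. Genes outside the list were ranked, with placeholder symbols (LOC) left out. Those nearest to CSF1R were PLAU, the urokinase gene (0.052), SMAD7, an inhibitor of TGF-beta signalling (0.066), and HAVCR1 (0.084). PLAU had scaled signals of 48.6 and 34.9 in FAE, against 4.09 and 3.34 in IFE, although another of its probe sets gave -0.48 and did not pass. Nearest to MERTK were SLC2A14, annotated as a glucose transporter (0.040), ITGB2 (0.10) and ARHGAP45 (0.14). The other tested probe sets of ARHGAP45, at -0.21 and -0.82, and of SLC2A14, at 0.90, did not pass. SLC2A14 had 13.1 and 8.56 in FAE, against 0.955 and 0.475 in IFE, where the second IFE value was under background. With 4 arrays in 2 groups, the measure reads the size of the difference between the groups and the order of the replicates, and little else.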

How the data were processed

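Total RNA of 2 FAE and 2 IFE samples was biotin-labelled in 2 cycles and read on 1-colour Affymetrix chicken arrays. The authors deposited linear intensities, 1 a probe set and array. MAS5 made them, per the submitters' processing notes, in a version not given in the sources used here. The median of each column is 1 and its lowest value 0.01. No scanner files or detection calls were used here, so background correction was not varied.

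Of 38535 probe sets, 96 controls were left out. Symbols came from the platform annotation, updated through gene IDs with the RefSeq table of bGalGal1.mat.broiler.GRCg7b. Of 38439 probe sets, 27168 named 1 gene, 177 several and 11094 none. No genome build applies to the values, so no coordinates are given. Arrays were scaled to a common 2% trimmed mean, and the result is called scaled signal. Log2 was taken with no offset. The 23063 probe sets whose mean scaled signal reached the 40th percentile (0.695) were tested with limma 3.58.1 in R 4.3.3 (eBayes with an intensity trend, two-sided, Benjamini-Hochberg over all tested probe sets, threshold 0.05), and 15376 dim ones were not. The scripts were tested on simulated data. With 2 arrays a group, their number limits precision.

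Fold changes are FAE over IFE. In the lists a gene stands by its brightest tested probe set (mean log2 signal). A probe set was under background in a group if it lay below the 95th percentile of 744 unnamed probe sets without the chicken prefix on both arrays; a fold is then a bound against that level, written "at least". Signals of different probe sets are not compared. Summed signals of a list, in which bright probe sets weigh most, are compared only between arrays. Genes named are every member, up to 8 list genes called higher and 4 lower by adjusted p, leading markers, and the 3 genes nearest to CSF1R and to MERTK; AXL, DOCK1, RAC1, ITGAV, ITGB3 and PTPRZ1 were added after their values were seen. Members and lists were chosen with earlier results of these data known. Alternatives tried were quantile normalization, the deposited median, other filters, an offset of 0.5, no trend, a replicate block, no _x_at or _s_at probe sets, and each array left out. Same-numbered samples' deviations correlated at 0.02, and nothing in the labels pairs them.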

Additional observations from a re-analysis of the deposited data

How the results depend on the processing

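The brightest probe sets of CSF1R and MERTK kept their calls under all 12 alternatives, and that of TIMD4 under 10 of 11. The count of probe sets of these genes called higher, 4 with all arrays, was 3 to 5 with 1 array left out and 2 without _x_at and _s_at probe sets, since fewer were then tested. The count called lower, 0 with all arrays, was 0 to 3 with 1 array left out. Over all tested probe sets, 1204 were higher and 695 lower. With 1 array left out the numbers were 191 to 3567 higher and 44 to 2471 lower. They were 449 and 102 without the intensity trend, 467 lower at the deposited median and 1083 lower with the replicate block. Under that replicate block, which rests on a shared number and not on a stated pairing, 2 member probe sets were lower, GAS6 (adjusted p = 0.0320) and PROS1 GgaAffx.24672.1.S1_s_at (0.0348). Leaving arrays at their deposited median moved every log2 fold change up by 0.13 and turned the dim TIMD4 probe set to 0.0070. Leaving out IFE replicate 1 turned MFGE8 Gga.7807.1.S1_at to 0.26, the top of its range of -1.60 to 0.26 with 1 array left out. The CSF1R probe set GgaAffx.26579.1.S1_s_at, at background in IFE, passed without the filter (adjusted p = 0.0215), with an offset of 0.5 (1.93, 0.0157) and without the trend (0.0309). CSF1R Gga.19453.1.S1_s_at did not pass without the trend (0.0616). Calls lost or gained with 1 array left out depend also on which pair gives the replicate spread. The cause of each change was not tested. Signals near background limit the dim probe sets of CSF1R, MERTK, TIMD4, PROS1, MFGE8 and MARCO.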
